A study of Ciona robusta with 6 samples.

Results

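The 40 most abundant transcripts in the deposited expression table of the adult *Ciona robusta* heart were examined across 3 heart parts. The members were chosen by their level after some rows were dropped by symbol. From the 793 genes that the table lists, 165 rows were dropped by symbol (the intermediate filament gene if-a, the tropomyosin gene tropm1, and every symbol that starts with vanabin, gpx or zf( ), and the remaining 628 were ranked by their mean FPKM over the 6 libraries. FPKM is the number of fragments per length of transcript and per depth of library, here scaled by the authors to the listed genes, so a level compares a gene with the other listed genes and not with the whole transcriptome. Of the dropped rows, 6 had a mean above that of the gene ranked 40, led by if-a at a mean of 71164 FPKM and tropm1 at a mean of 7477 FPKM, so the set describes the abundant listed transcripts apart from these.

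*Ciona robusta* is a tunicate, a sister lineage of the vertebrates. The groups were the pharyngeal blood sinus (PS), the stomach blood sinus (SS) and the cardiac tube (C), with 2 libraries each and 6 in all. Every library came from adult, wild caught animals, with the RNA of pooled pieces of dissected hearts, so a library does not stand for 1 animal. According to the study's methods the pericardial cells were taken away and each sinus piece kept some of the muscle of the neighbouring tube, which limits the sinus libraries as a model of sinus tissue alone. Nothing in the labels says that the 2 pools of a part came from separate collections, so the p-values measure the spread between these libraries, which may be technical.

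As background, the tunicate heart is a tube of muscle folded within a pericardium, open at its ends into blood sinuses, and its beat reverses from time to time so that blood flows either way. Transcripts of ribosomal proteins, actin and collagen are among the most abundant in many animal tissues, the ribosomal ones because every cell makes proteins, actin because it builds the cytoskeleton and the thin filaments of muscle, and collagen because it forms the fibres around cells. Roles given below rest on the symbol that the table prints and on knowledge from vertebrates, insects or yeast. Of the 40 members 27 carry such a symbol, and 13 carry only an identifier that begins with LOC, to which no name or role is given here. No member matched the reference gene table at hand (0 of 40).

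The 6 libraries held adjusted read totals of 1412759 to 1950483 over the listed genes, with 782 to 787 genes above 0, and every member was above 0 in every library. The summed FPKM of all listed genes was 592159 and 560813 in PS, 546774 and 601683 in SS, and 777369 and 750972 in C. The sums were larger in C than in any sinus library, so a share of the sum and an FPKM level can differ in direction. Among marker lists, 4 of 14 heart muscle symbols were listed (if-a, tropm1, nk4 and smyd1), with summed levels of 52227 and 47109 FPKM in PS, 64030 and 65710 FPKM in SS, and 120320 and 127743 FPKM in C. The 4 listed vanabins, proteins of vanadium-storing blood cells, summed to 15208 and 12415 FPKM in PS, 7801 and 9786 FPKM in SS, and 11255 and 10617 FPKM in C. A gene listed as endostyle-specific, the only 1 of 5 endostyle and pharynx symbols found, stood at 128 and 1010 FPKM in PS, 21.5 and 9.94 FPKM in SS, and 27.8 and 9.21 FPKM in C. The sums of 4 digestive tract, 9 sperm and cilia and 4 nervous system genes were small beside those of the members. Digestive tract sums were 102 to 201 FPKM. Sperm and cilia sums were 157 and 85.2 FPKM in PS, 323 and 758 FPKM in SS, and 148 and 111 FPKM in C. Nervous system sums were 1078 and 965 FPKM in PS, 1317 and 1156 FPKM in SS, and 1823 and 2044 FPKM in C. Of these 4 genes ache had its highest levels in C, and th, gnrh1 and opsin3 had theirs in PS. In each of these lists a gene was at 0 in a library (hnf6, dlc and gnrh1). In such bulk pieces fewer cells of a type and less RNA per cell cannot be told apart.

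The 40 members held most of the listed FPKM in every library. Their share was 62.4% and 61.7% in PS, 59.2% and 61.4% in SS, and 61.5% and 59.9% in C. Per part this was 62.1 ± 0.493% in PS, 60.3 ± 1.57% in SS and 60.7 ± 1.12% in C (SD, n = 2 each). Both PS libraries lay just above the other 4, and SS and C overlapped. The 165 dropped rows held 15.4 ± 0.297% in PS, 17.5 ± 0.691% in SS and 21.8 ± 1.02% in C, and the 588 other genes held 22.5 ± 0.790% in PS, 22.2 ± 0.875% in SS and 17.5 ± 0.103% in C. With the dropped rows out of the denominator the order of the parts changed, and the members held 73.4 ± 0.840% in PS, 73.1 ± 1.29% in SS and 77.6 ± 0.424% in C. The 10 most abundant members alone held 41.3 ± 0.682% of all listed FPKM in PS, 39.0 ± 1.18% in SS and 40.7 ± 0.472% in C. The shares describe the values that chose the members, and no test was made on them.

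**Figure D1:**
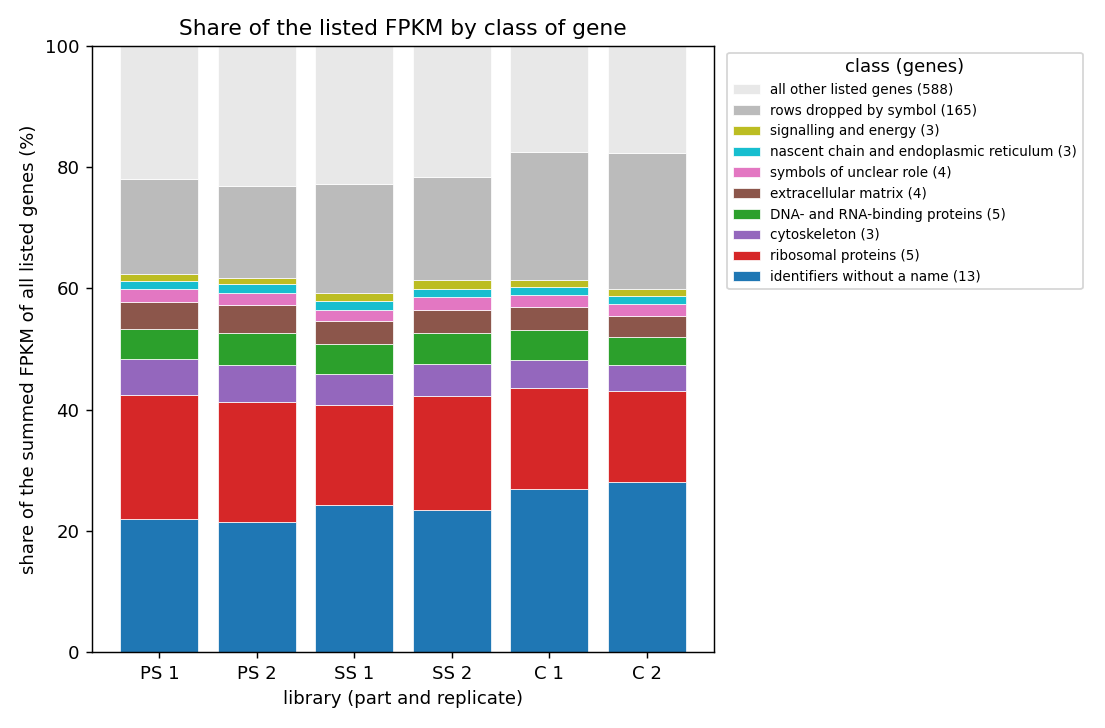
Share of the summed FPKM of all listed genes (%, vertical axis) held in each of the 6 libraries (PS, SS, then C, replicates 1 and 2) by each class of members, by the rows dropped by symbol and by all other listed genes, with the number of genes per class in the legend. The 13 identifiers without a name take 21.4% to 22.0% in PS, 23.5% to 24.3% in SS and 26.9% to 28.1% in C, and the 5 ribosomal proteins take 19.9% to 20.5% in PS, 16.5% to 18.8% in SS and 15.1% to 16.7% in C.

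The members spanned a mean of 1907 FPKM (cam, rank 40) to 63608 FPKM (LOC100179388, rank 1), and 14 of them had a mean above 10000 FPKM. The first gene stood 2.62 times above the second. Around the limit of the list, hmg1/2 (rank 39) had a mean of 1928 FPKM and cam a mean of 1907 FPKM, and the next genes, cbfb (rank 41) and c3-1 (rank 42), had means of 1821 and 1755 FPKM. The step from rank 40 to rank 41 was thus smaller than the difference between replicates of cam, which had 1776 and 1401 FPKM in PS, 1634 and 2329 FPKM in SS, and 2284 and 2020 FPKM in C.

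**Figure D2:**
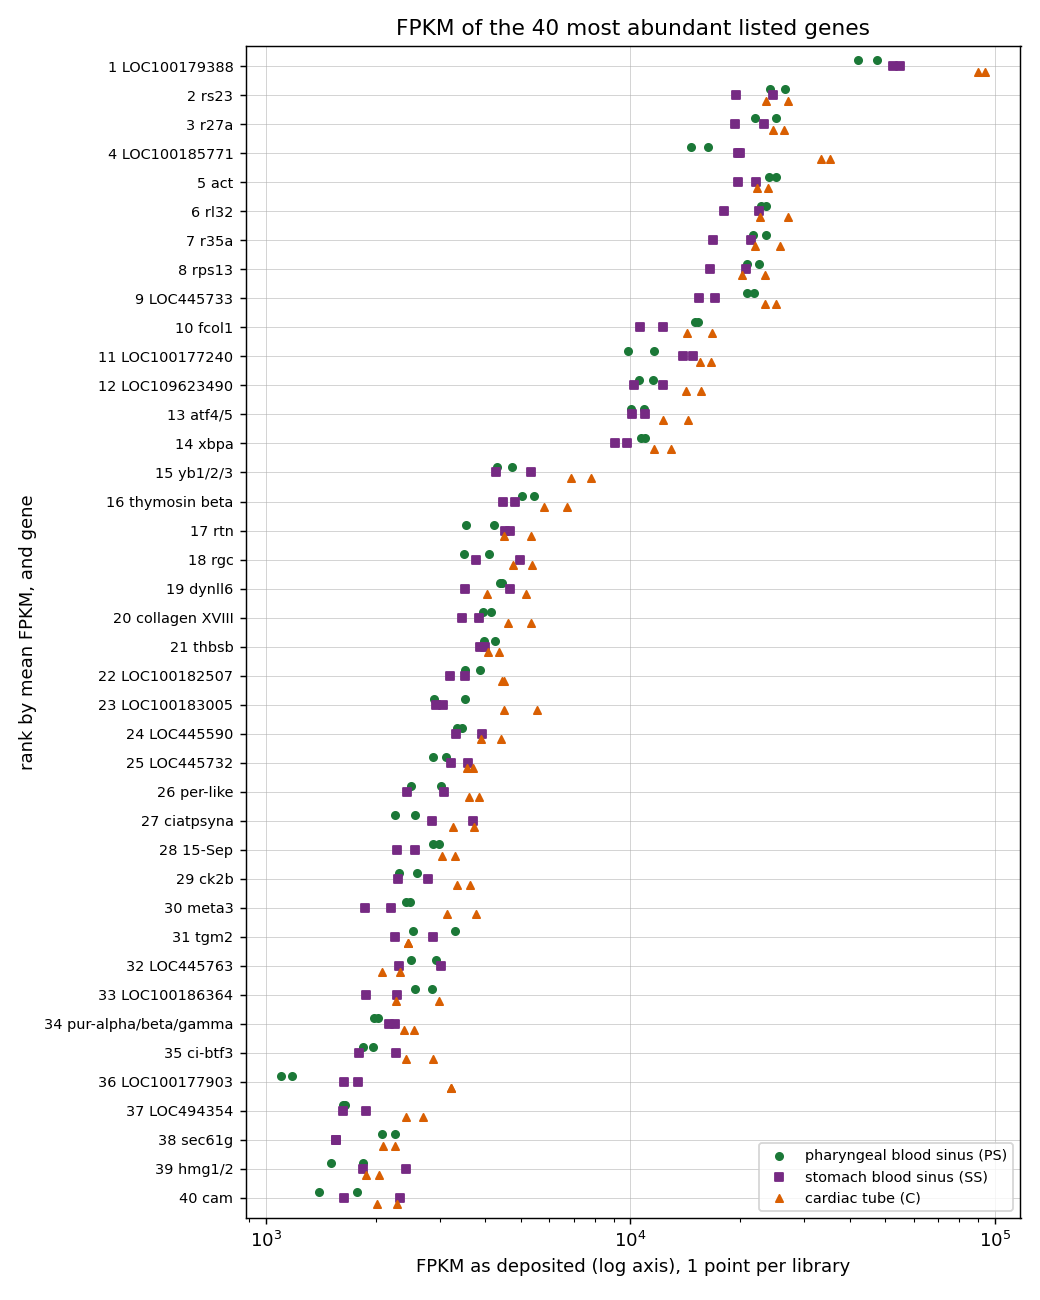
FPKM as deposited (log axis, horizontal) of each of the 40 members, ordered down the page by rank, with 1 point per library (circles PS, squares SS, triangles C). At the deposited scaling the mean of C is the highest of the 3 parts in 34 of the 40 members, beside 36.5% of all genes above 0 in every part, whereas with equal summed FPKM it is the highest in 9 members, beside 7.54% of those genes. These FPKM also chose the members, so the counts are descriptions. The gap between C and the sinus libraries is widest in relative terms for LOC100177903, LOC100185771 and LOC100179388.

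The 5 ribosomal protein transcripts ranked 2, 3, 6, 7 and 8. By their symbols rs23 and rps13 belong to the small ribosomal subunit and rl32 and r35a to the large one, and r27a is a ribosomal protein whose subunit the symbol does not settle. Their levels were close to each other, with means of 20729 FPKM (rps13) to 24261 FPKM (rs23). The gene rs23 had 26509 and 24182 FPKM in PS, 19541 and 24683 FPKM in SS, and 27084 and 23567 FPKM in C, so that PS and C overlapped and 1 SS library was lower than all others. In r27a the first SS library was again the lowest, with 25048 and 22001 FPKM in PS, 19355 and 23311 FPKM in SS, and 26332 and 24634 FPKM in C, where only SS lay apart from C. For rl32 the values were 23611 and 22833 FPKM in PS, 18065 and 22591 FPKM in SS, and 27132 and 22686 FPKM in C.

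The gene r35a had 23552 and 21689 FPKM in PS, 16837 and 21448 FPKM in SS, and 25678 and 22006 FPKM in C. Lastly, rps13 had 22567 and 20863 FPKM in PS, 16550 and 20779 FPKM in SS, and 23387 and 20230 FPKM in C. In each of the 5 the first replicate was the higher in PS and in C and the second was the higher in SS. On the log2 scale the 5 genes differed between PS and C by -0.12 to 0.00 and between SS and C by -0.32 to -0.20, and none passed the test (lowest adjusted p of limma 0.809 for PS against C and 0.432 for SS against C). Summed, they came to 116428 ± 6872 FPKM in PS, 101580 ± 15884 FPKM in SS and 121369 ± 11660 FPKM in C (SD, n = 2 each). As a share of the listed FPKM the same transcripts held 20.2 ± 0.416% in PS, 17.6 ± 1.57% in SS and 15.9 ± 1.14% in C, so that PS was highest by share while the levels of PS and C did not differ beyond the spread.

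Proteins of the nascent chain and of the endoplasmic reticulum, the compartment where secreted proteins are folded, were 3 of the members. These were rtn (rank 17, mean 4472 FPKM), a reticulon that shapes the tubules of the endoplasmic reticulum, ci-btf3 (rank 35, mean 2200 FPKM), a subunit of the complex that binds new chains leaving the ribosome, and sec61g (rank 38, mean 1968 FPKM), the gamma subunit of the channel through which chains enter the endoplasmic reticulum. Together they held 1.38 ± 0.0247% of the listed FPKM in PS, 1.43 ± 0.0582% in SS and 1.28 ± 0.0493% in C. Of these sec61g had the closest replicates in SS, with 2082 and 2254 FPKM in PS, 1555 and 1557 FPKM in SS, and 2267 and 2093 FPKM in C. Both SS libraries lay below the other 4, and the differences of -0.49 ± 0.11 for SS against C and 0.48 ± 0.11 for PS against SS (log2, SE) had adjusted p-values of 0.0962 and 0.129 in limma, which miss the threshold.

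Among the DNA- and RNA-binding proteins, atf4/5 (rank 13, mean 11460 FPKM) and xbpa (rank 14, mean 10840 FPKM) were followed by yb1/2/3 (rank 15, mean 5557 FPKM). By their symbols atf4/5 and xbpa are transcription factors with a leucine zipper, whose vertebrate relatives act in the integrated stress response and in the unfolded protein response. The Y-box protein yb1/2/3 binds messenger RNA, pur-alpha/beta/gamma (rank 34, mean 2233 FPKM) binds single-stranded nucleic acid, and hmg1/2 (rank 39) is a chromatin protein with HMG boxes. The class held 5.13 ± 0.255% of the listed FPKM in PS, 5.07 ± 0.0630% in SS and 4.89 ± 0.302% in C, overlapping between the parts. Within it yb1/2/3 differed most between the parts, with 4745 and 4305 FPKM in PS, 4277 and 5333 FPKM in SS, and 7794 and 6888 FPKM in C. Its sinus libraries did not overlap those of C, with adjusted p-values of 0.0622 for PS and 0.110 for SS in limma.

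The extracellular matrix members were fcol1 (rank 10), a fibrillar collagen, collagen XVIII (rank 20, mean 4216 FPKM), a collagen of basement membranes, thbsb (rank 21, mean 4086 FPKM), a thrombospondin, and tgm2 (rank 31, mean 2648 FPKM), a transglutaminase, an enzyme that crosslinks proteins. The collagen fcol1 had 15084 and 15387 FPKM in PS, 10630 and 12260 FPKM in SS, and 16708 and 14334 FPKM in C. Both SS libraries lay below the other 4, and PS and C overlapped. The difference of SS from C was -0.44 ± 0.18 on the log2 scale (SE, limma adjusted p = 0.217). The most even of the members was thbsb, whose part means had a ratio of 1.07 between the highest and the lowest, with 4244 and 3963 FPKM in PS, 3985 and 3880 FPKM in SS, and 4082 and 4362 FPKM in C. The class held 4.56 ± 0.107% in PS, 3.76 ± 0.0583% in SS and 3.55 ± 0.175% in C. By share both PS libraries lay above the other 4.

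Cytoskeletal members were act (rank 5), an actin, thymosin beta (rank 16, mean 5379 FPKM), which binds actin monomers, and dynll6 (rank 19, mean 4373 FPKM), a light chain of dynein motors. Actin had 25136 and 23972 FPKM in PS, 19772 and 22183 FPKM in SS, and 23903 and 22207 FPKM in C, the PS values being the highest and the SS values the lowest. The PS minus C difference was 0.09 on the log2 scale with a 95% interval of -0.38 to 0.56, and the SS minus C difference was -0.14 with an interval of -0.61 to 0.33, so a change of 2-fold lies outside both. Actin genes form a family of similar copies, and since only uniquely aligned reads were counted, reads shared between copies would be missing, which was not checked. The class held 5.94 ± 0.130% of the listed FPKM in PS, 5.17 ± 0.133% in SS and 4.43 ± 0.238% in C, with no overlap between parts.

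Members of signalling and energy metabolism were ciatpsyna (rank 27, mean 3061 FPKM), by its symbol a subunit of the ATP synthase, ck2b (rank 29, mean 2828 FPKM), the regulatory subunit of casein kinase CK2, and cam (rank 40), calmodulin, the calcium sensor of muscle and other cells. They held 1.12 ± 0.0759% in PS, 1.35 ± 0.158% in SS and 1.19 ± 0.0639% in C. The transcript ciatpsyna had 2564 and 2255 FPKM in PS, 2858 and 3698 FPKM in SS, and 3722 and 3268 FPKM in C, where PS lay below the other libraries (PS against C, limma adjusted p = 0.123). For 4 further symbols the role is unclear, namely rgc (rank 18, mean 4413 FPKM), per-like (rank 26, mean 3080 FPKM), 15-Sep (rank 28, mean 2846 FPKM) and meta3 (rank 30, mean 2652 FPKM). The entry 15-Sep has the form of a date, as spreadsheets make of some symbols, and is printed as listed. Of these meta3 differed most, with 2427 and 2490 FPKM in PS, 1871 and 2210 FPKM in SS, and 3764 and 3149 FPKM in C, and adjusted p-values of 0.113 for PS and 0.0693 for SS in limma.

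The 13 identifiers without a name held 21.7 ± 0.408% of the listed FPKM in PS, 23.9 ± 0.527% in SS and 27.5 ± 0.854% in C, the reverse order of the ribosomal proteins. LOC100179388 (rank 1) accounted for 8.04% and 7.53% in PS, 9.60% and 9.14% in SS, and 11.6% and 12.6% in C. Its level was 47611 and 42222 FPKM in PS, 52479 and 55016 FPKM in SS, and 90072 and 94245 FPKM in C. It was the most abundant member in all 3 parts, and no 2 parts overlapped. On the log2 scale it differed by -1.04 ± 0.26 between PS and C and by -0.78 ± 0.26 between SS and C, which misses the threshold (limma adjusted p = 0.0679 and 0.147).

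LOC100185771 (rank 4) had 16321 and 14685 FPKM in PS, 19702 and 19957 FPKM in SS, and 33270 and 35430 FPKM in C. It ranked 9 in PS, 6 in SS and 2 in C, again with no overlap between parts. It was 2.22-fold lower in PS than in C (log2 -1.15 ± 0.19 SE, limma adjusted p = 0.0268), and SS was 1.73-fold below C (log2 -0.79 ± 0.19, adjusted p = 0.0962). LOC445733 (rank 9) had 21862 and 20969 FPKM in PS, 15483 and 17131 FPKM in SS, and 25061 and 23453 FPKM in C, with SS lowest and an adjusted p of 0.137 for SS against C in limma.

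LOC100177903 (rank 36) varied most of all members, with 1102 and 1182 FPKM in PS, 1789 and 1639 FPKM in SS, and 3217 and 3228 FPKM in C. Its mean ranked 66 in PS, 40 in SS and 30 in C. It was 2.82-fold lower in PS than in C (log2 -1.50 ± 0.11 SE, limma adjusted p = 0.00545) and 1.88-fold lower in SS than in C (log2 -0.91 ± 0.11, adjusted p = 0.0438), and between PS and SS the difference was -0.58 ± 0.11 with an adjusted p of 0.0795. The call between SS and C stood close to the threshold, and it was lost with a pseudocount of 0.1 (adjusted p = 0.0509 in limma), with a pseudocount of 10 (0.0505), with no variance trend (0.136), without SS replicate 1 (0.0762) or 2 (0.159) and without C replicate 1 (0.276) or 2 (0.274). The call between PS and C was lost only without C replicate 1 (0.107) or 2 (0.129) and with the replicate number and the factor term together (0.0765). LOC494354 (rank 37) had 1626 and 1645 FPKM in PS, 1884 and 1629 FPKM in SS, and 2430 and 2691 FPKM in C. It was 1.56-fold lower in PS than in C (log2 -0.64 ± 0.13, limma adjusted p = 0.0385), and the SS minus C difference of -0.55 ± 0.13 had an adjusted p of 0.0962.

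The remaining 8 identifiers were LOC100177240 (rank 11, mean 13734 FPKM), LOC109623490 (rank 12, mean 12413 FPKM), LOC100182507 (rank 22, mean 3842 FPKM), LOC100183005 (rank 23, mean 3745 FPKM), LOC445590 (rank 24, mean 3721 FPKM), LOC445732 (rank 25, mean 3345 FPKM), LOC445763 (rank 32, mean 2532 FPKM) and LOC100186364 (rank 33, mean 2477 FPKM). The direction was not shared by all of them. LOC445763 had 2938 and 2497 FPKM in PS, 2312 and 3028 FPKM in SS, and 2330 and 2086 FPKM in C, so that C was lowest on the mean, with adjusted p-values of 0.376 for PS and 0.429 for SS in limma.

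Counted over the list, 3 of 40 members (7.5%) differed between PS and C at an adjusted p under 0.05 in limma, against 7.44% of all 793 genes, so the share of called members was that of the listed genes. All 3 were lower in PS (LOC100185771, LOC100177903 and LOC494354). Over all genes 2.40% were called lower, but nothing is read from this, because 2 of the 3, LOC100177903 and LOC494354, had means in both sinuses below the 1821 FPKM of the gene ranked 41 and entered the list through their level in C. With no variance trend LOC100185771 (adjusted p = 0.0529 in limma) and LOC494354 (0.143) were not called. Between SS and C the only member called was LOC100177903 (1 of 40, 2.5%), beside 1.64% of all genes called and 0.378% called lower. Since this gene entered the list through its level in C, the share is a description. None of the 40 was called between PS and SS, against 1.26% of all genes. At an unadjusted p under 0.05 there were 3 members in that comparison (7.5%, against 14.9% of all genes), and without the term for the removed factor 2 were called. The moderated F test over the 3 parts called 1 member (LOC100177903, adjusted p = 0.0107), against 4.29% of all genes. The comparisons with C share the C libraries. With either C library left out, the calls of members against C were lost, in fits with 1 residual degree of freedom. The loss was general, since almost no call was left over all genes either. Without a PS or an SS library the number of calls also moved, for the members and for all genes.

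Without regard to the threshold, most members had lower values in the sinuses than in C at the deposited scaling. The members were ranked by the mean of these same values, and the summed FPKM was largest in C. The counts that follow are therefore descriptions, also where a share of all genes stands beside them. LOC100177903 and LOC494354, which entered the list through their level in C, are counted among them. The median log2 difference was -0.28 for PS against C, with 35 of 40 members negative, beside a median of 0.00 and 50.2% negative over all genes. For SS against C it was -0.33, with 37 of 40 negative, beside 0.02 and 47.5% over all genes. In 27 members both PS libraries were below both C libraries, and in 27 both SS libraries were (67.5% each), against 31.7% and 30.3% of all genes, and 20 members met both conditions, against 21.4% of all genes. At an unadjusted p under 0.05, 14 members (35%) were lower in PS and 16 (40%) lower in SS than in C, where 23.3% and 23.0% of all genes passed in either direction. Between PS and SS the median was 0.05, with 18 of 40 negative, and its sign depended on single libraries, being -0.04 without PS replicate 1 (21 negative), 0.08 without PS replicate 2 (16 negative), -0.09 without SS replicate 1 (26 negative) and 0.17 without SS replicate 2 (10 negative). Leaving out SS replicate 1 or 2 moved the SS minus C median, relative to that of all genes, to -0.14 or -0.49, and leaving out C replicate 1 or 2 moved it to -0.22 or -0.52 and the PS minus C median to -0.16 or -0.33.

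The sign of these differences depended on the scaling, since the summed FPKM differed between parts. With the libraries scaled to equal summed FPKM, the median of all genes moved to 0.39 for PS against C and 0.42 for SS against C, and the members' medians turned to 0.12 and 0.09, with 15 of 40 negative in each comparison. Relative to the median of all genes, the members stood at -0.28 in PS and -0.35 in SS at the deposited scaling, and at -0.27 and -0.33 with equal sums. Of the called differences, those of LOC100185771 and LOC100177903 between PS and C passed the threshold under both scalings, whereas LOC494354 did not pass with equal sums (log2 -0.24, adjusted p = 0.274), and neither did LOC100177903 between SS and C (log2 -0.50, adjusted p = 0.0518). The summed level of the heart muscle symbols, led by if-a, had the same order of parts as LOC100179388, LOC100185771 and LOC100177903, with PS lowest and C highest. Its part in these differences was not tested.

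**Figure D3:**
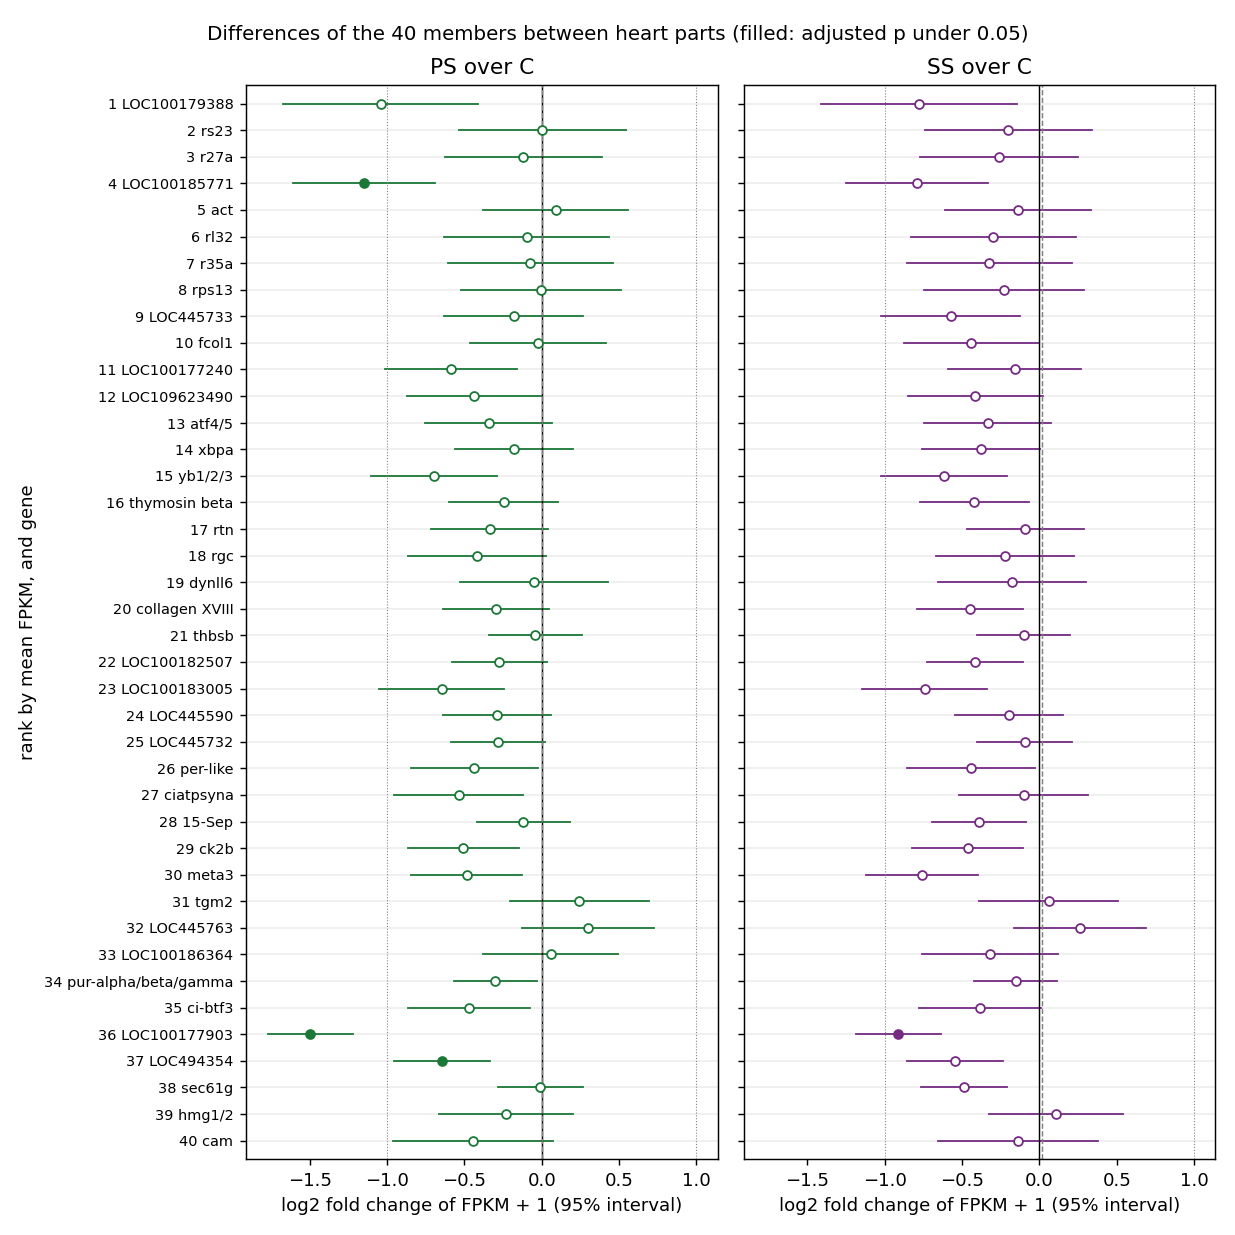
Log2 fold change of each member with its 95% interval (horizontal axes, log2 of FPKM + 1) for PS over C on the left and SS over C on the right, ordered down the page by rank, with filled points at an adjusted p under 0.05, dotted lines at -1 and 1 and a dashed line at the median of all 793 genes. Of the 40 intervals 34 lie within -1 to 1 for PS over C and 33 for SS over C.

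The 95% interval of the difference lay within -1 to 1 on the log2 scale, that is, within 2-fold, in 34 of 40 members for PS against C, 33 for SS against C and 40 for PS against SS, beside 62.0%, 63.6% and 70.0% of all genes. Without C replicate 1 or C replicate 2 the count was 20 or 17 for PS against C, and without C replicate 2 it was 14 for SS against C, in fits with 1 residual degree of freedom. The median standard error was 0.17 for the members and 0.21 for all genes. Replicates of a member differed by a median relative SD of 5.91% in PS, 10.9% in SS and 7.60% in C, beside 7.77%, 10.7% and 9.06% over all genes. The median ratio between the highest and the lowest part mean was 1.33 among the members and 1.32 over the 783 genes above 0 in every part, and a ratio above 2 was found in 3 members (LOC100177903, LOC100185771 and LOC100179388) and in 18.1% of those genes.

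Most members were also in the top 40 of each part. The rule favours such overlap, since it used the mean of these same 6 libraries. Compared directly, the top 40 of PS and C shared 36 genes, those of SS and C 38, and those of PS and SS 36. Of the 40 members 36 were also in the top 40 of PS, 39 in that of SS and 39 in that of C, and 35 were in all 3. Those outside a part's top 40 were LOC100177903, LOC494354, hmg1/2 and cam in PS, sec61g in SS and hmg1/2 in C, all within the last 5 ranks. In their place PS had c3-1, a complement protein by its symbol, erd2, a receptor that returns proteins to the endoplasmic reticulum, LOC100179227 and not2, SS had c3-1, and C had cbfb, the partner subunit of Runx transcription factors. All of the genes that came in ranked between 41 and 57 over the 6 libraries.

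FPKM divides by transcript length, and the lengths recovered from the table show what that did to the list. The members had a median length of 1102 bases, beside 1954 bases over all listed genes, and ran from 372 bases (r35a) to 4912 bases (LOC100186364). Ranked by adjusted reads without division by length, 28 of the 40 stayed in the top 40. The ribosomal proteins ranked 2 to 8 by FPKM and between 12 (r27a) and 22 (r35a) by adjusted reads, and LOC445763, with 417 bases, moved to rank 106. In the opposite direction fcol1, with 3820 bases, ranked 3, collagen XVIII ranked 8 and LOC100186364 ranked 11. The first member by adjusted reads was LOC100179388 at rank 2, with a mean of 89364. Above it stood con, not a member, with 105022 to 197717 adjusted reads per library, which are part of the listed total. By adjusted reads the members held 45.9 ± 1.21% of the listed total in PS, 43.6 ± 1.75% in SS and 45.5 ± 2.19% in C. The extracellular matrix members then held 10.3 ± 0.493% in PS, 8.47 ± 0.371% in SS and 8.47 ± 0.688% in C, above the ribosomal proteins with 5.62 ± 0.0269% in PS, 4.96 ± 0.579% in SS and 4.64 ± 0.446% in C. The lead of ribosomal over matrix transcripts therefore holds per length and not per read.

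**Figure D4:**
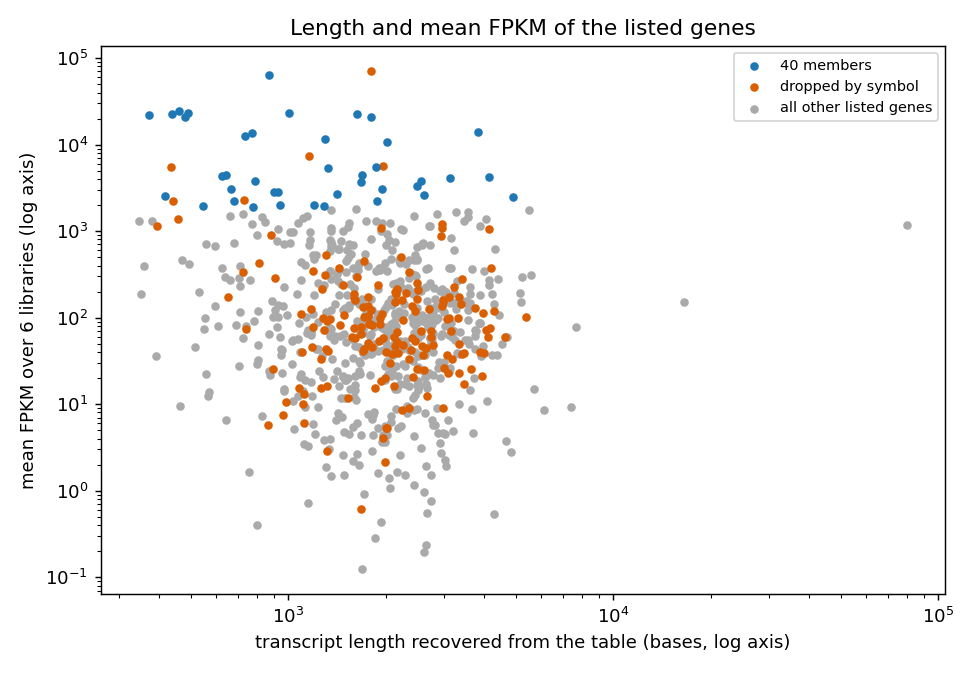
Mean FPKM over the 6 libraries (vertical, log axis) against transcript length in bases (horizontal, log axis) of the listed genes with a mean above 0, with the 40 members, the rows dropped by symbol and all other listed genes in 3 colours. The ribosomal proteins form the cluster at 372 to 491 bases, with means of 20729 to 24261 FPKM, and the members reach up to 4912 bases.

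Further listed genes were taken from lists of symbol prefixes, of which only the translation, cytoskeleton and calcium-binding lists held a member. The lists are not the full families of the members, since symbols such as xbpb, atf3 and ck2a were in none of them. The translation list found only rps13, a member, and the chaperone list found hsp40 and hsp70, neither of them called in any of the 3 comparisons. The calcium-binding list added calumenin, cam-k and calx, the blood and complement list 7 symbols, of which capza and capzb are actin-capping proteins by name, the ubiquitin list ubf and the cytoskeleton list tnfa, which by name belong to neither family, and none of these was called. Of 55 symbols in transcription factor families, 4 were higher and 4 lower in PS than in C, 2 were higher and 1 lower in SS than in C, and 0 were higher and 1 lower in PS than in SS. Of 23 kinases and GTPases none was called in the 3 comparisons. Of 32 symbols of the Wnt, TGF-beta, FGF, Notch and hedgehog pathways 2 were higher in PS than in C, and none was called in the other comparisons. Over all 793 genes 7.44% were called between PS and C, 1.64% between SS and C and 1.26% between PS and SS. Nothing is read from the counts of these lists.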

How the data were processed

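RNA of pooled heart pieces was sequenced in 6 libraries, 2 per part. Per the study's methods the authors trimmed reads with cutadapt, aligned them with STAR to the UCSC *Ciona* genome ci3, kept uniquely aligned reads, summarised these by gene in featureCounts (Subread), and removed 1 factor of unwanted variation with RUVs before DESeq2. The methods give tool versions for the study's zebrafish libraries and refer to that description for these. The deposited columns headed raw hold a score, namely reads per gene after the factor was taken out, rounded to whole numbers, so no count model was used, and depth is known only as totals of these adjusted reads. The deposited FPKM are, as far as the values show, what the authors obtained by dividing adjusted reads by gene length and size factors (0.975 to 1.03). The formula that uses the totals of the listed genes alone gives a whole length, within 0.01, for 793 of 793 genes. Columns with the authors' fold changes, p-values and false discovery rates for each comparison, and a mean over the libraries, were not used.

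For each gene, log2(FPKM + 1), that is, with a pseudocount of 1, was modelled in limma 3.58.1 (R 4.3.3) over the 6 libraries, with the 3 parts and a term for the removed factor, which left 2 residual degrees of freedom, and with a variance trend. Fold changes are on that scale. The p-values were adjusted over all 793 genes by Benjamini-Hochberg, with calls under 0.05 and no filter on low values. Exact permutation tests of single genes were not used, since 2 libraries against 2 cannot give a two-sided p below 0.333. The fit was tested on simulated data that held changes of 2-fold or more in PS only. Smaller changes and changes in SS were not simulated, so the test does not cover them. Shares, ranks and figures were made with Python 3.11.15, pandas 2.3.3 and matplotlib 3.10.9.

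The members, classes and lists were chosen with earlier results of these data known. Every member is named. Values per library are given for the 10 highest, for each called member and for the 3 with the largest ratio between part means, and further members with values per library were picked after their values were seen. Alternatives were other pseudocounts, scalings, factor terms, a low-value filter, no trend, adjusted reads, other list sizes, and each library left out. The removed factor almost coincides with the replicate number (cosine 0.997), so whether the numbers pair the samples could not be checked.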

Additional observations from a re-analysis of the deposited data

How the results depend on the processing

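The counts of called members rest on few residual degrees of freedom and shifted with most settings. For PS against C, 3 members were called. The count was 10 with no term for the removed factor, 1 with no trend and 6 with adjusted reads, each lower in PS. Over all genes these counts were 151, 13 and 72. With equal summed FPKM 6 members were called, 3 of them lower in PS, beside 124 of all genes. With equal sums of the genes outside the members 5 were called, 2 of them lower, beside 168 of all genes. The count also moved with a library left out. For SS against C, 1 was called. Pseudocounts of 0.1 and 10 and no trend each gave 0. The count was 2 without the genes of mean FPKM under 5, 12 with no term, 4 with adjusted reads, 2 with either equal-sum scaling, and 0 to 7 with a library left out. For PS against SS, 0 were called, 2 with no term and 0 with each library left out. Over all genes 13 were called for SS against C, 2 with either pseudocount and 0 with no trend. The all-gene count was 26 without the genes of mean FPKM under 5 and 113 with no term. It was 32 with adjusted reads and 114 with either equal-sum scaling. For PS against SS 10 of all genes were called, and 33 with no term. By the F test 1 member was called. It was 2 without low genes, 10 with no term, 0 with no trend, 6 with adjusted reads, 4 and 3 with the equal sums, 2 with TMM factors, and 0 to 10 with a library left out. Over all genes the F test made 34 calls, and 50 without low genes, 151 with no term and 16 with no trend. Adjusted reads gave 65, the equal sums 134 and 128, and TMM factors 48. The cause of these shifts was not tested.

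With the replicate number as a block in place of the factor term, 3, 1, 0 and 2 members were called. Over all genes these counts were 61, 13, 10 and 36. With the block and the term together, which nearly coincide, the count was 0 in each, for the members and for all genes. Differences between replicates were tied by the removed factor, so no pairing can be read from them.

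The members with an interval within 2-fold numbered 17 to 36 for PS against C, 14 to 36 for SS against C and 36 to 39 for PS against SS with a library left out. The members' share with the dropped rows out of the denominator was 73.4% in PS, 73.1% in SS and 77.6% in C, and by adjusted reads 45.9%, 43.6% and 45.5%. For the share of all listed FPKM, leaving out a library only returns the value of the part's other library. These values were 61.7% to 62.4% in PS, 59.2% to 61.4% in SS and 59.9% to 61.5% in C, so this setting adds no check. In the top 20 in place of the top 40, 17 genes were common to all parts, and in the top 80, 74. No called difference changed sign under any alternative run.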
